A study of Mus musculus with 6 samples.

Results

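The genes described here are 53 mouse genes of the urea cycle and of amino acid breakdown, measured in liver on Affymetrix 3′ expression arrays. They were listed by name from these pathways. A gene was represented by the probe set that carries its symbol alone and has the highest mean over the 6 arrays. Of the 53 genes, 49 had such a probe set, out of 18193 genes with one in all. One of them is Mmut, listed under its older name Mut. Gls2, Sds, Sdsl and Amt were not analysed here. Bcat2, the mitochondrial branched-chain aminotransferase, lay under the filter on low signals with a mean log2 signal of 5.16 in ChLO livers and 5.49 in WT livers, so 48 of the 53 genes were tested.

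The study compared 3 livers of ChLO mice with 3 livers of wild-type (WT) mice, all male. ChLO mice are liver-specific ChREBP knockouts, with a floxed Chrebp gene (now Mlxipl) and a Cre transgene driven by albumin, a promoter of hepatocytes. Liver cells in which this promoter is silent keep the gene. All mice were 12 weeks old and were fed a 60% sucrose diet over 1 week. The sources used here do not say whether the WT mice carried floxed alleles or the transgene. ChREBP is a transcription factor that sugar activates, so the comparison asks how liver transcripts differ without it under a sucrose load.

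Amino acids that are not used for protein are broken down mainly in the liver. Their nitrogen passes through glutamate and ammonia into the urea cycle, which joins ammonia and aspartate nitrogen to bicarbonate and releases urea. Their carbon skeletons enter the citric acid cycle, gluconeogenesis or ketone synthesis. Most of these enzymes are made in hepatocytes, with urea synthesis around the portal vein and glutamine synthesis in a rim around the central vein, and fasting, glucagon and glucocorticoids are known to raise many of them.

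Values are log2 signals, and a difference is ChLO minus WT on that scale. Array medians ran from 6.38 to 6.60. The deleted gene, Mlxipl, read 10.34, 11.22 and 11.48 in ChLO livers 1, 2 and 3, against 12.61, 12.56 and 12.59 in the WT livers, so that every ChLO liver lay below every WT liver. The difference was -1.57 (SE 0.28, limma adjusted p = 0.185), and -1.81 without ChLO 3 (adjusted p = 0.0199). Whether the probe set lies in the deleted stretch is not known here. ChLO 3 was closer to the WT arrays than to the other ChLO arrays. Over the 12598 genes tested it correlated at 0.898 with ChLO 1 and 0.932 with ChLO 2, against 0.936 to 0.953 with the WT arrays. ChLO 1 was the array least like WT, at 0.894 to 0.925, and correlated at 0.951 with ChLO 2. ChLO 2 correlated at 0.923 to 0.942 with the WT arrays. The correlations thus do not single out ChLO 3 as the faulty array. The main differences are given both with and without ChLO 3, and the fit without it compares 2 ChLO arrays with 3 WT arrays. Values without ChLO 1 are given for the set and for a few genes only. ChLO arrays 1 and 2 also carried higher signals of stromal and myeloid markers, which are given with the results they accompany.

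No gene of the set passed the test over all genes. With all 6 arrays, limma called 0 of the 48 genes at an adjusted p under 0.05, as it called 0% of the 12598 genes tested (smallest adjusted p 0.0528, and 1129 genes at an unadjusted p under 0.05). Most genes were nonetheless lower on average. Signals were lower in ChLO for 37 of the 48 genes and higher for 11, with a median difference of -0.32. Over all genes tested the median was 0.06, and 43.5% were lower. Below their WT mean were 43, 39 and 12 of the 48 genes in ChLO 1, 2 and 3, and 42, 4 and 25 in WT 1, 2 and 3. The genes thus moved together within single arrays, WT arrays included, so the 37 are not independent results. In bulk liver, fewer hepatocytes and less of an RNA per hepatocyte cannot be told apart. By unadjusted p under 0.05, 4 genes were lower, against 3.50% of all genes, and 1 was higher, against 5.46%. Every ChLO array lay below every WT array for 6 genes, against 6.19% of all genes. Every ChLO array lay above every WT array for 2 genes, against 9.04%. Both the count and the median depended on scaling and on single arrays: 29 of the 48 genes were lower with spike-in scaling, with a median of -0.07, and 30 of 49 without ChLO 1, with a median of -0.11. The counts of lower genes exceed those shares by only a few genes, and the counts of higher genes lie below them.

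The ChLO livers differed among themselves. The 48 genes deviated from their WT means by a median of -0.82 (ChLO 1), -0.47 (ChLO 2) and 0.24 (ChLO 3), against -0.19, 0.25 and -0.01 in WT 1, 2 and 3. ChLO 1 and ChLO 2 thus lay below the WT range and ChLO 3 inside it, at the level of WT 2. Of the 48 genes, 33 in ChLO 1, 29 in ChLO 2 and 8 in ChLO 3 read below every WT array, against 29.2%, 25% and 24% of all genes tested. In ChLO 3, 26 genes read above every WT array, or 54.2%, against 31% of all genes. ChLO 3 had the highest value of the 3 ChLO arrays for 42 of the 48 genes, and ChLO 1 had the lowest for 39. Over all genes these shares were 39.2% and 34.2%. In the same ChLO arrays, stellate and stromal markers deviated from their WT means by medians of 1.80, 1.88 and 0.01, and hepatocyte markers by -0.37, -0.37 and -0.16, and their part in the result was not tested.

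Without ChLO 3 the median difference was -0.56, with 43 genes lower and 5 higher. In that fit limma called 7 of the 48 genes lower at an adjusted p under 0.05, against 0.802% of the 12587 genes tested, and 0 higher, against 1.59%. By unadjusted p under 0.05, 23 genes were lower (8.02% of all genes) and 0 were higher (12.4%). Both remaining ChLO arrays lay below every WT array for 25 genes (16.1%) and above for 2 (23.4%). The 7 genes were Asl of the urea cycle, Haao of tryptophan breakdown, Hgd of tyrosine breakdown, Hal, Uroc1 and Amdhd1 of histidine breakdown, and Etnppl. Leaving out the array was a choice made with its values known, so these calls describe 2 ChLO livers against 3 WT livers. With ChLO 1 left out instead, limma called 0 genes of the set lower and 0 higher, and 3 of all 12631 genes tested. The smallest adjusted p of the set was then 0.687. In that fit the differences were -0.73 for Asl, -0.95 for Haao, -1.71 for Etnppl and -0.32 for Arg1.

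**Figure D1:**
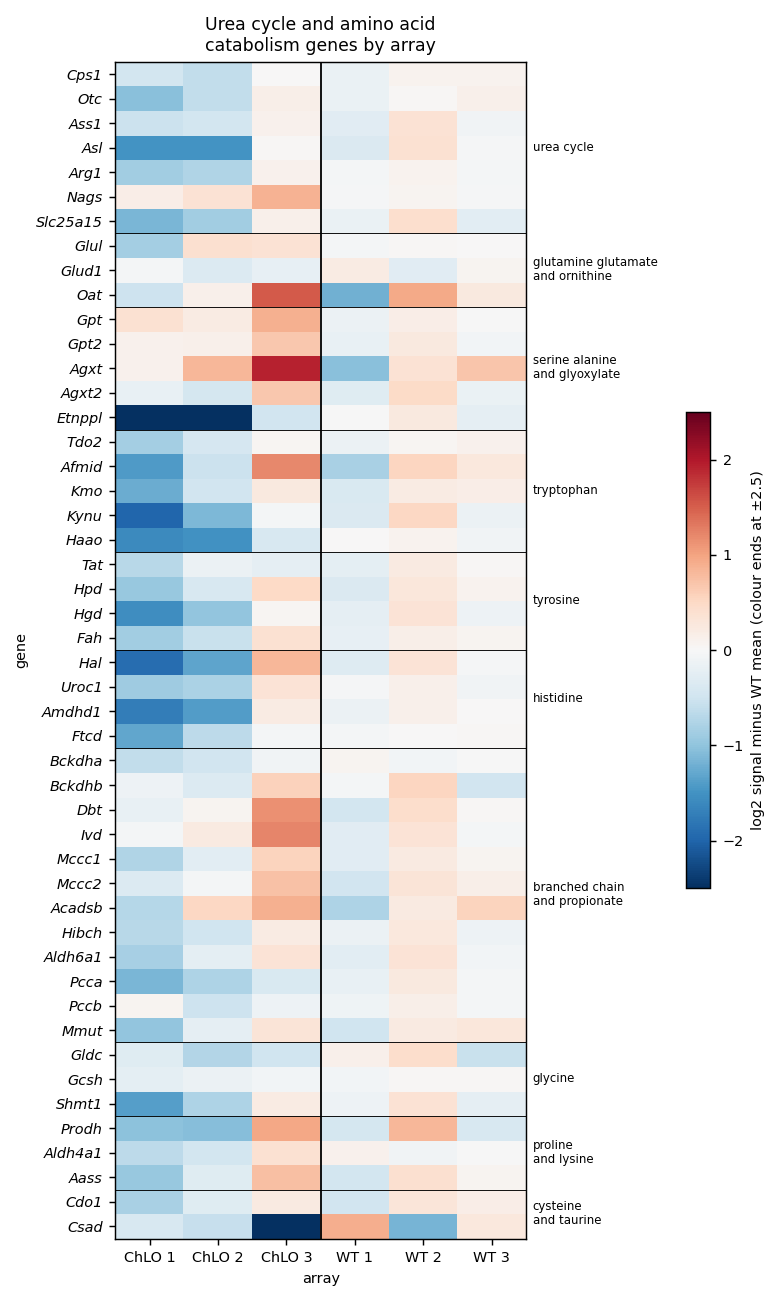
Heat map of the 48 genes tested (rows, ordered by pathway) in the 6 arrays (columns, ChLO left of WT); colour is the log2 signal minus the mean of the 3 WT arrays, blue lower and red higher, and the colour scale ends at ±2.5. Most rows are blue in ChLO 1 and ChLO 2 and pale or red in ChLO 3, with medians of -0.82, -0.47 and 0.24.

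The starts of 4 genes are shown as examples of promoters that hold a motif that was searched for. Nags, Pcca and Ftcd have no overlap between the groups, Nags higher in ChLO and the others lower. Slc25a15, like Ass1, is a urea cycle member with an E-box, and its groups overlap. None of the 4 was called with all arrays or without ChLO 3. The windows are RefSeq promoters of GRCm38.p6, which reach from before a transcript start to just past it, printed 5′ to 3′ on the gene's strand. Capitals mark TGACG, a half-site of the cAMP response element, or CACGTG, an E-box, the letters in the binding sites of the factor family that ChREBP belongs to, on either strand. Pcca and Slc25a15 have a second promoter in the table with neither motif.
Nags, chr11:102145263-102145562, plus strand: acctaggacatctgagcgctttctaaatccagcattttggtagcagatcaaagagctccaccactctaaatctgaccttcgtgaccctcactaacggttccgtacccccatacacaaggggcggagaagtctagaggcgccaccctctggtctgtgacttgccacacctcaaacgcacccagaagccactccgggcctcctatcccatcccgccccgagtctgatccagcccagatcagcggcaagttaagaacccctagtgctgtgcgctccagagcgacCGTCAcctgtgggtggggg
Ftcd, chr10:76575398-76575697, plus strand: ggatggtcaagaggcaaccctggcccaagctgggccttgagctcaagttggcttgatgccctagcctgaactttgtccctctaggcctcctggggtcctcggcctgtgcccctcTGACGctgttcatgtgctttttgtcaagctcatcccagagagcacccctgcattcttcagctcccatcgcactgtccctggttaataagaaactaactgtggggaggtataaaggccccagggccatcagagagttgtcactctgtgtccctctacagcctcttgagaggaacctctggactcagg
Pcca, chr14:122534078-122534377, plus strand: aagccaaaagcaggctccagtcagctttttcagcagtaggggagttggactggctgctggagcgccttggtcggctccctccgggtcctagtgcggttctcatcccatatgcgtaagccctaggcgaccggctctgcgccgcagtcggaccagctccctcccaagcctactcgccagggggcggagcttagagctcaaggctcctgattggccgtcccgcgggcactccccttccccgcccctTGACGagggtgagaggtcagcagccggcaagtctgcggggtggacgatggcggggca
Slc25a15, chr8:22398228-22398527, minus strand: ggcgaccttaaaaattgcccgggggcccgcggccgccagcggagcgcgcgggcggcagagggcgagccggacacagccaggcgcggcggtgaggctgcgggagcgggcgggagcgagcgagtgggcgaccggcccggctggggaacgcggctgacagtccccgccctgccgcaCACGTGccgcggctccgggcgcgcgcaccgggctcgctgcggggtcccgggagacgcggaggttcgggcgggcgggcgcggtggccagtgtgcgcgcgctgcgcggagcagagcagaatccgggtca
Of the genes with a probe set, 41 had 49 promoters in the RefSeq table. The half-site was found in 8 of these 49 promoters, or 16.3%, against 20.8% of all 32851 promoters. The E-box was found in 3 of the 49 (Ass1, Mccc2 and Slc25a15), or 6.12%, against 7.15% of all. No promoter of the set held both motifs, and the promoters of Haao, Etnppl, Bckdha and Gcsh held neither. These are matches of letters in a short window and say nothing of binding.

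Of the 7 urea cycle genes, 6 were lower in ChLO and 1, Nags, was higher, with a median of -0.51 (-0.82 without ChLO 3). All 6 lower genes read below every WT array in both ChLO 1 and ChLO 2, against 16% of all genes tested. In ChLO 3, 0 of them did so, against 24% of all genes. Cps1, the carbamoyl phosphate synthetase that fixes ammonia in the first step, read 15.13, 14.98 and 15.61 in the ChLO livers, against 15.44, 15.69 and 15.68 in the WT livers. Otc, which joins carbamoyl phosphate to ornithine, read 13.33, 13.75 and 14.52 in the ChLO livers, against 14.21, 14.40 and 14.50 in the WT livers. For both, ChLO 1 and ChLO 2 lay below the WT livers and ChLO 3 within or above them, and Cps1 lies close to the largest signals of the arrays, 15.87 to 16.38. The differences were -0.36 (SE 0.22) for Cps1 and -0.51 (SE 0.30) for Otc, or 1.28-fold and 1.42-fold lower, with limma adjusted p of 0.638 and 0.630. The Cps1 difference was -0.11 with quantile normalization or spike-in scaling and -0.54 without ChLO 3. The Otc difference was -0.26 with spike-in scaling and -0.83 without ChLO 3.

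The cytosolic steps showed the same division of arrays. Asl, argininosuccinate lyase, read 11.92, 11.93 and 13.45 in ChLO 1, 2 and 3, against 13.06, 13.81 and 13.40 in WT. The first 2 ChLO livers were more than 1 log2 unit below the lowest WT liver, and ChLO 3 lay inside the WT range. Its mean was 12.44 ± 0.88 in ChLO and 13.42 ± 0.38 in WT (SD, n = 3 each), a difference of -0.99 (SE 0.42, unadjusted p = 0.0467, adjusted p = 0.549 by limma). Without ChLO 3 the difference was -1.50 (SE 0.23), 2.82-fold lower, and passed (adjusted p = 0.0247). Arg1, the arginase that releases urea, read 14.37, 14.49 and 15.36 in the ChLO livers, against 15.20, 15.34 and 15.21 in the WT livers, a difference of -0.51 (SE 0.27). Without ChLO 3 it was -0.82 (SE 0.17), just short of the threshold (adjusted p = 0.0513).

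Ass1, argininosuccinate synthetase, was measured by a probe set of moderate signal, since a second one, which is annotated also to the gene Gm5424, was not used. It read 9.48, 9.56 and 10.13 in the ChLO livers, against 9.73, 10.38 and 9.94 in the WT livers, a difference of -0.30 (SE 0.25), and of -0.50 (SE 0.23) without ChLO 3. Slc25a15, the mitochondrial carrier that exchanges ornithine for citrulline, read 12.71, 13.00 and 13.99 in the ChLO livers, against 13.71, 14.29 and 13.60 in the WT livers. The difference was -0.63 (SE 0.35) with all arrays and -1.01 (SE 0.24, adjusted p = 0.0739) without ChLO 3. Its second probe set differed by -0.67.

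Nags departed from the rest of the cycle. It makes N-acetylglutamate, the activator that Cps1 requires. It read 10.42, 10.61 and 11.12 in the ChLO livers, against 10.22, 10.30 and 10.21 in the WT livers, so that every ChLO liver was above every WT liver. Its mean was 10.71 ± 0.36 in ChLO and 10.24 ± 0.05 in WT (SD, n = 3 each), 1.39-fold higher, with a difference of 0.47 (SE 0.21, unadjusted p = 0.0560, adjusted p = 0.565). Without ChLO 3 it was 0.27 (SE 0.17), still with no overlap.

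**Figure D2:**
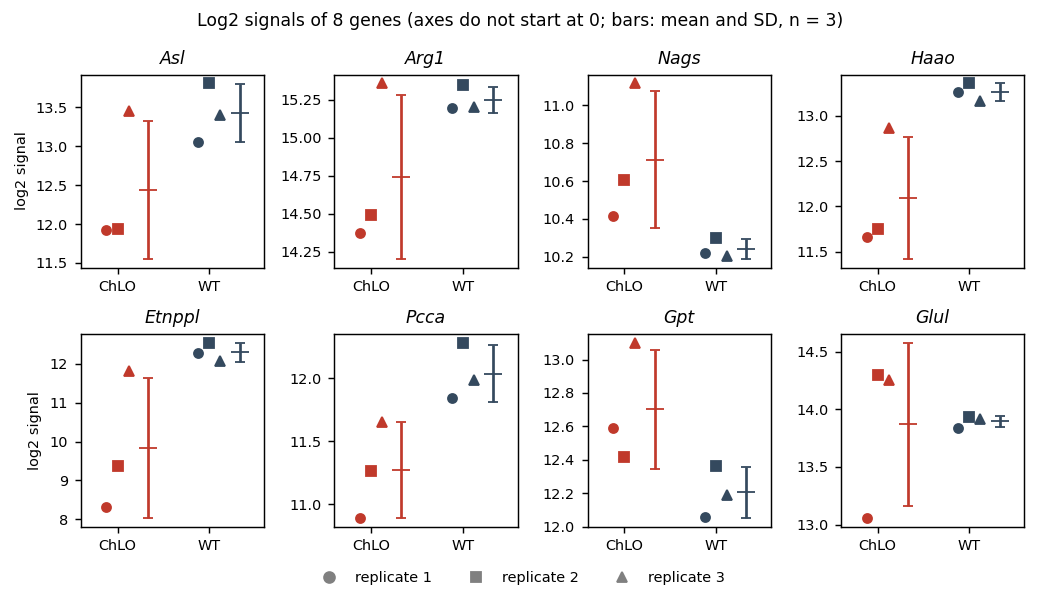
Log2 signals of 8 genes in ChLO (red) and WT (dark blue) livers, 1 point per array with the replicate number as its shape, and the mean with its SD (n = 3) at the right of each group; the axes do not start at 0. For Asl and Arg1 only ChLO 3 lies within or above the WT points, while the groups do not overlap for Nags, Haao, Etnppl, Pcca and Gpt.

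Of the 3 tested genes that handle glutamine, glutamate and ornithine, 2 were lower and 1 was higher, with a median of -0.02 (-0.20 without ChLO 3). Glul, glutamine synthetase of the pericentral hepatocytes, read 13.06, 14.30 and 14.26 in the ChLO livers, against 13.84, 13.94 and 13.91 in the WT livers. Only ChLO 1 was below the WT arrays and the other 2 were above them, and the difference was -0.02 (SE 0.33, adjusted p = 0.986). The difference became positive with quantile normalization, spike-in scaling, array weights or without ChLO 1. It was -0.14 with the mean of probe sets, and a second, dimmer probe set of Glul differed by -0.26. Glud1, glutamate dehydrogenase, differed by -0.20 both with all arrays (SE 0.19) and without ChLO 3 (SE 0.20). Oat, ornithine aminotransferase, spread over more than 2 log2 units within each group, from 12.35 to 14.41 in ChLO and from 11.68 to 13.83 in WT, with a difference of 0.38 (SE 0.64) that was -0.19 (SE 0.55) without ChLO 3.

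Of the 5 tested genes of alanine, glyoxylate and phosphoethanolamine, 4 were higher in ChLO, with a median of 0.30 (0.11 without ChLO 3). Gpt, the cytosolic alanine aminotransferase, read 12.59, 12.41 and 13.10 in the ChLO livers, against 12.06, 12.36 and 12.19 in the WT livers, with no overlap. The difference was 0.50 (SE 0.21), 1.41-fold higher (unadjusted p = 0.0482, adjusted p = 0.550), and 0.30 (SE 0.17) without ChLO 3. A second, dimmer probe set of Gpt differed by 0.36, with overlap. Gpt2, its mitochondrial counterpart, read 13.27, 13.30 and 13.84 in the ChLO livers, against 12.99, 13.42 and 13.10 in the WT livers, so the groups overlapped. Its 4 probe sets were higher by 0.30 to 0.45, and the brightest by 0.11 without ChLO 3. Agxt, which turns glyoxylate into glycine, was higher by 0.95 (SE 0.55), with 11.71 to 13.51 in ChLO and 10.55 to 12.28 in WT, and by 0.47 (SE 0.48) without ChLO 3. Agxt2, a mitochondrial aminotransferase of glyoxylate and other substrates, differed by 0.02 (SE 0.33), and by -0.31 (SE 0.25) without ChLO 3.

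Etnppl had the largest difference of the 48 genes. It encodes the phospho-lyase that breaks phosphoethanolamine down to acetaldehyde, ammonia and phosphate. It read 8.31, 9.37 and 11.81 in ChLO livers 1, 2 and 3, against 12.28, 12.55 and 12.06 in the WT livers. Every ChLO liver was below every WT liver, ChLO 3 by the smallest margin. The difference was -2.47 (SE 0.76), 5.53-fold lower (unadjusted p = 0.0120, adjusted p = 0.455). Without ChLO 3 it was -3.46 (SE 0.31, adjusted p = 0.00875). A second, dimmer probe set differed by -1.45, and there ChLO 3 read 10.01, above every WT array.

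All 5 genes of the kynurenine route of tryptophan were lower, with a median of -0.49 (-0.98 without ChLO 3). Tdo2, the dioxygenase that opens the tryptophan ring and a classic glucocorticoid target, read 14.55, 14.97 and 15.44 in the ChLO livers, against 15.24, 15.43 and 15.49 in the WT livers. Its difference was -0.40 (SE 0.25) with all arrays and -0.63 (SE 0.20, adjusted p = 0.140) without ChLO 3. Haao, the dioxygenase that makes the precursor of quinolinate for NAD synthesis, read 11.66, 11.75 and 12.86 in the ChLO livers, against 13.26, 13.36 and 13.16 in the WT livers. It was the gene of the set with the smallest p, and its groups did not overlap. Its mean was 12.09 ± 0.67 in ChLO and 13.26 ± 0.10 in WT (SD, n = 3 each), 2.25-fold lower, with a difference of -1.17 (SE 0.31, unadjusted p = 0.00581, adjusted p = 0.410). Without ChLO 3 the difference was -1.55 (SE 0.16, adjusted p = 0.0133). Kynu, kynureninase, differed by -1.05 (SE 0.46) and by -1.55 (SE 0.33, adjusted p = 0.0573) without ChLO 3. A dim second probe set of Kynu was higher by 0.62. Kmo, kynurenine hydroxylase, and Afmid, kynurenine formamidase, differed by -0.49 (SE 0.36) and -0.25 (SE 0.64). Without ChLO 3 they differed by -0.86 (SE 0.28, adjusted p = 0.147) and -0.98 (SE 0.42, adjusted p = 0.246).

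The 4 tyrosine genes were lower as well, with a median of -0.35 (-0.69 without ChLO 3). Tat, tyrosine aminotransferase and the first step, read 13.80, 14.35 and 14.29 in the ChLO livers, against 14.26, 14.72 and 14.53 in the WT livers. It differed by -0.36 (SE 0.22), and by -0.43 (SE 0.23) without ChLO 3, so that leaving that array out moved it little. Hgd, homogentisate dioxygenase, read 12.62, 13.18 and 14.21 in the ChLO livers, against 13.95, 14.51 and 14.04 in the WT livers. Its difference was -0.83 (SE 0.38), and -1.26 (SE 0.25, adjusted p = 0.0463) without ChLO 3. Hpd and Fah, the steps before Hgd and at the end of the route, differed by -0.29 (SE 0.36) and -0.34 (SE 0.31). Without ChLO 3 they differed by -0.68 (SE 0.25, adjusted p = 0.192) and -0.71 (SE 0.19, adjusted p = 0.102).

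Histidine breakdown had the lowest median among the routes with 3 or more genes tested, -0.73, and -1.27 without ChLO 3. All 4 of its genes read below every WT array in both ChLO 1 and ChLO 2, against 16% of all genes tested. In ChLO 3, 3 of the 4 read above every WT array, against 54.2% of the 48 genes and 31% of all genes. Hal, the histidine ammonia-lyase that starts the route, read 10.38, 10.96 and 13.11 in the ChLO livers, against 11.96, 12.63 and 12.26 in the WT livers. Amdhd1, which opens the imidazolone ring, read 10.87, 11.19 and 12.80 in the ChLO livers, against 12.43, 12.73 and 12.61 in the WT livers. Uroc1, urocanate hydratase between them, read 12.54, 12.64 and 13.78 in the ChLO livers, against 13.40, 13.57 and 13.34 in the WT livers. These genes have ChLO livers on both sides of the WT range, and with all arrays the differences were -0.80 (SE 0.62), -0.97 (SE 0.45) and -0.45 (SE 0.32) for Hal, Amdhd1 and Uroc1. Without ChLO 3 they were -1.61, -1.56 and -0.85, with limma adjusted p of 0.0283, 0.0135 and 0.0459. Ftcd, which passes the last one-carbon unit to folate, read 12.27, 12.90 and 13.52 in the ChLO livers, against 13.52, 13.58 and 13.59 in the WT livers. Its groups did not overlap, though ChLO 3 touched the lowest WT liver, and the difference was -0.67 (SE 0.29, adjusted p = 0.563). Hal, Hgd, Amdhd1 and Uroc1 are given by array because they passed without ChLO 3, a choice made after their values were seen.

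The 12 tested genes of branched-chain amino acid and propionate breakdown were divided, 7 lower and 5 higher, with a median of -0.18 (-0.37 and 11 lower without ChLO 3). Pcca, a subunit of propionyl-CoA carboxylase, read 10.90, 11.26 and 11.66 in the ChLO livers, against 11.84, 12.28 and 11.99 in the WT livers, every ChLO liver below every WT liver. The difference was -0.76 (SE 0.23), 1.70-fold lower (unadjusted p = 0.0106, adjusted p = 0.455), and -0.96 (SE 0.20, adjusted p = 0.0568) without ChLO 3. Its partner subunit Pccb differed by -0.19 (SE 0.19). Bckdha, a subunit of the branched-chain ketoacid dehydrogenase, read 11.07, 11.22 and 11.59 in the ChLO livers, against 11.76, 11.62 and 11.68 in the WT livers. These groups did not overlap either, but the nearest values were close, and the difference was -0.39 (SE 0.18, adjusted p = 0.575). The other subunits of that complex, Bckdhb and Dbt, differed by 0.04 (SE 0.32) and 0.33 (SE 0.37), and by -0.23 and -0.07 without ChLO 3. The remaining 7 genes (Ivd, Mccc1, Mccc2, Acadsb, Hibch, Aldh6a1 and Mmut) differed by between -0.33 and 0.46 with all arrays and between -0.61 and 0.09 without ChLO 3. Of these Hibch passed an unadjusted p of 0.05 without ChLO 3, at -0.60 (SE 0.20, adjusted p = 0.148).

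The 3 tested genes of glycine cleavage and serine-glycine exchange were lower. Gcsh, the lipoyl carrier protein of the cleavage system, read 12.56, 12.64 and 12.73 in the ChLO livers, against 12.73, 12.83 and 12.82 in the WT livers. Its groups did not overlap, but the nearest values were equal to 2 decimals, and the difference of -0.15 (SE 0.15, adjusted p = 0.757) turned positive, to 0.10, with spike-in scaling. Gldc, the decarboxylase of that system, differed by -0.51 (SE 0.27). Shmt1, cytosolic serine hydroxymethyltransferase, differed by -0.65 (SE 0.38) and by -1.07 (SE 0.25, adjusted p = 0.0747) without ChLO 3, and its 4 probe sets differed by between -1.14 and -0.65. Prodh, Aldh4a1 and Aass, of the proline and lysine routes, differed by between -0.38 and -0.16, and by between -1.05 and -0.56 without ChLO 3.

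Both cysteine and taurine genes were lower. Csad, cysteine sulfinate decarboxylase of taurine synthesis, read 10.59, 10.41 and 8.47 in the ChLO livers, against 11.89, 9.82 and 11.24 in the WT livers. It was the 1 gene of the 48 for which ChLO 3 was the lowest ChLO liver, and WT 2, the lowest WT liver, overlapped the ChLO range. The difference was -1.16 (SE 0.67), and -0.49 (SE 0.52) without ChLO 3. Csad was singled out after its values were seen. Cdo1, cysteine dioxygenase upstream of it, differed by -0.30 (SE 0.31), and by -0.56 (SE 0.27) without ChLO 3.

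**Figure D3:**
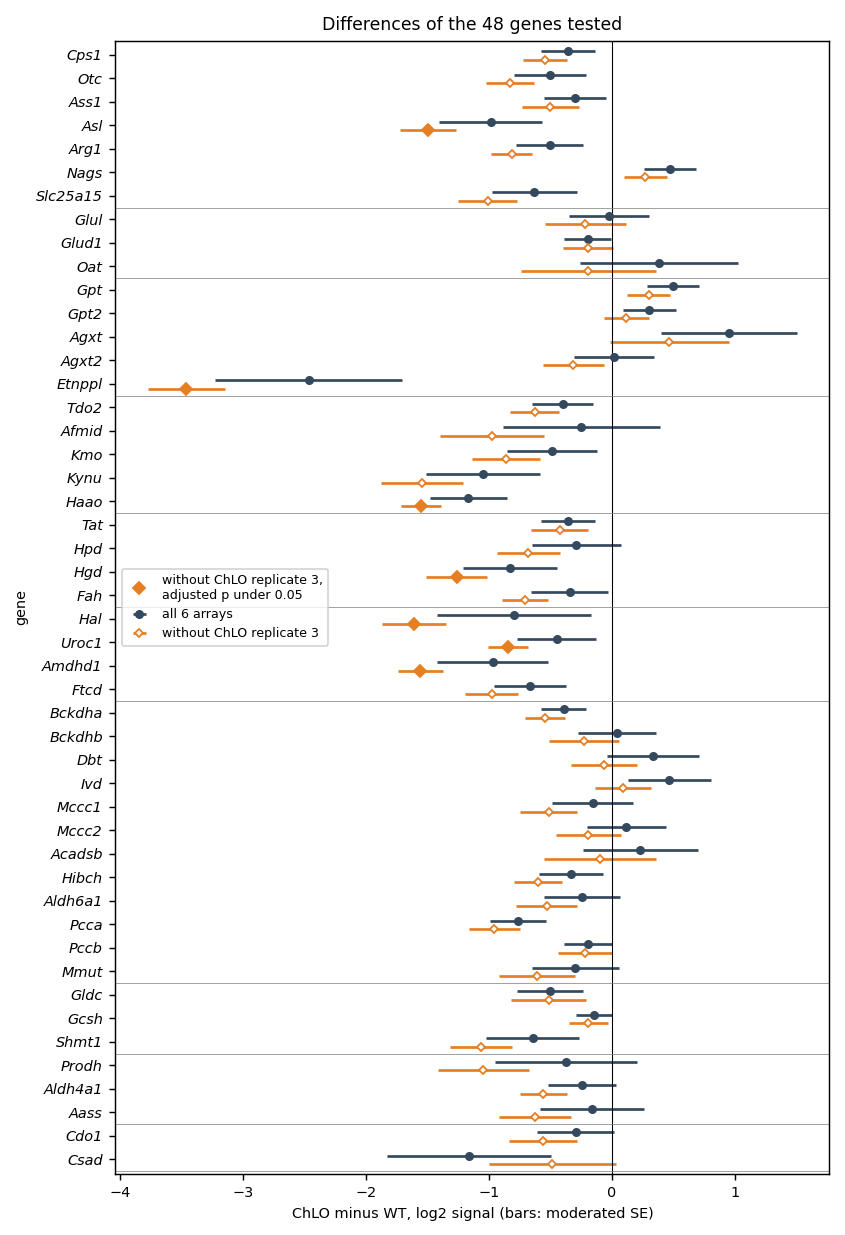
ChLO minus WT difference in log2 signal (horizontal axis) of the 48 genes tested, in pathway order; filled circles with bars are the fit to all 6 arrays with its moderated SE, and diamonds the fit without ChLO replicate 3, filled where the limma adjusted p was under 0.05. Leaving out ChLO 3 moves most genes to the left, to a median of -0.56 against -0.32, and 7 diamonds are filled.

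Further enzymes of the same pathways were also mostly lower. From a list of 63 other genes of amino acid metabolism, 51 were tested, of which 41 were lower and 10 higher, with a median of -0.33. Over all genes tested, 43.5% were lower. By unadjusted p under 0.05, 4 of the 51 were lower, against 3.50% of all genes, and 2 were higher, a smaller share than the 5.46% of all genes. The lower ones were Ddc, aromatic amino acid decarboxylase, at -0.68 (SE 0.21), Srr, serine racemase, at -0.73 (SE 0.25), Grhpr, glyoxylate reductase, at -0.57 (SE 0.22), and Pcbd1, which regenerates the cofactor of phenylalanine hydroxylation, at -0.48 (SE 0.19). The higher ones were Maoa, a monoamine oxidase, at 1.05 (SE 0.36), and Arg2, the arginase found mainly outside the liver, at 1.18 (SE 0.49). Arg2 read 7.12, 7.17 and 5.84 in the ChLO livers, against 5.43, 5.45 and 5.71 in the WT livers, near the filter level of 5.50 in WT livers. In ChLO 1 and ChLO 2 Arg2 thus lay above every WT array and Arg1 below, while in ChLO 3 both lay slightly above every WT array. Without ChLO 3, 46 of the 51 were lower, with a median of -0.63, and 29 were lower and 3 higher by unadjusted p under 0.05 (8.02% and 12.4% of all genes). In that fit limma called 0 of the 51 lower at an adjusted p under 0.05, against 0.802% of all genes, and 2 higher, against 1.59%. These were Maoa (1.44, adjusted p = 0.0346) and Aldh18a1, which makes the precursor of proline and ornithine (2.47, adjusted p = 0.0306).

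Among 26 tested regulators of these pathways, which include the deleted Mlxipl, 20 were lower and 6 higher, with a median of -0.30. Over all genes tested, 43.5% were lower. Without ChLO 3, 18 were lower and 8 higher, with a median of -0.42. By unadjusted p under 0.05 with all arrays, 3 were lower, against 3.50% of all genes, and 1 was higher, against 5.46%. Beside Mlxipl, the lower genes at an unadjusted p under 0.05 were Gcgr, the glucagon receptor, and Ppargc1a, a coactivator of fasting genes. Gcgr read 11.03, 11.50 and 11.50 in the ChLO livers, against 12.16, 11.66 and 12.00 in the WT livers, with no overlap and a difference of -0.60 (SE 0.21, adjusted p = 0.494). Unlike most genes of the set, it was low in ChLO 3 too. Ppargc1a read 8.23, 8.67 and 9.47 in the ChLO livers, against 9.62, 9.72 and 9.43 in the WT livers, with a difference of -0.80 (SE 0.31), and -1.14 (adjusted p = 0.0477) without ChLO 3. Cebpd, a transcription factor of the acute phase, was higher by 1.05 (SE 0.34, adjusted p = 0.466), with 9.66, 10.79 and 10.31 in the ChLO livers, against 8.70, 9.30 and 9.61 in the WT livers. Nr3c1, the glucocorticoid receptor, differed by -0.23 (SE 0.20), and by -0.36 without ChLO 3, and Hnf4a, a hepatocyte factor, by -0.36 (SE 0.18).

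Markers of several cell types differed in the same ChLO arrays. All 10 tested hepatocyte markers were lower in ChLO, with a median of -0.29, against -0.32 for the 48 genes. Without ChLO 3 these medians were -0.35 and -0.56. Cps1 stands in both lists. Except for Hnf4a, the hepatocyte markers had mean signals of 15.32 to 16.06, close to the largest signals of the arrays, 15.87 to 16.38. Of the 48 genes only Cps1 lay that high, so the medians compare unlike signal levels. The summed linear signal of the hepatocyte markers was 384644 to 473432 in ChLO and 476119 to 560485 in WT. That of the 48 genes was 293518, 361941 and 595181 in ChLO 1, 2 and 3 against 438146 to 572444 in WT. In ChLO 3 the hepatocyte markers had a median of -0.16, and the 48 genes one of 0.24.

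All 14 stellate and stromal markers were higher in ChLO, with a median of 1.15. Their summed signal was 28701, 33782 and 12744 in ChLO 1, 2 and 3, against 9895 to 15159 in the WT livers. Of 12 tested myeloid markers 10 were higher. The summed signal of the 12 was 22477, 22200 and 12180 in the ChLO livers, against 13359 to 13405 in the WT livers. Clec4f, Vsig4, Csf1r and Adgre1 differed by between -0.14 and 0.14, and the other myeloid markers by between 0.75 and 1.79. Of 7 tested cholangiocyte markers 6 were higher. The summed signal of the 7 was 2453, 1353 and 995 in the ChLO livers, against 367 to 585 in the WT livers. In the ChLO livers these sums are mostly Krt23 and Cldn4, which differed by 2.26 (SE 0.41) and 2.74 (SE 0.85). The other cholangiocyte markers differed by between -0.12 and 0.89, and Krt7, Krt19 and Cldn7 had mean signals close to the filter level. The endothelial markers were higher in 9 of 11 cases, with sums of 12271 to 15916 in ChLO and 10899 to 13145 in WT. The lymphocyte markers were higher in 4 of 5 cases with all arrays and in 2 of 5 without ChLO 3, where their median was -0.12. Their sums of 1064 to 2078 in ChLO and 726 to 1056 in WT are mostly Ptprc, a gene of all leukocytes, which differed by 1.17 (SE 0.41). The other 4 differed by between -0.54 and 0.19. Among the defining markers, Cftr, Itgam, Cd3e, Cd3g, Cd4, Cd79a and Nkg7 lay under the filter level. The part of these cells in the lower signals of the urea cycle and amino acid genes was not tested.

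**Figure D4:**
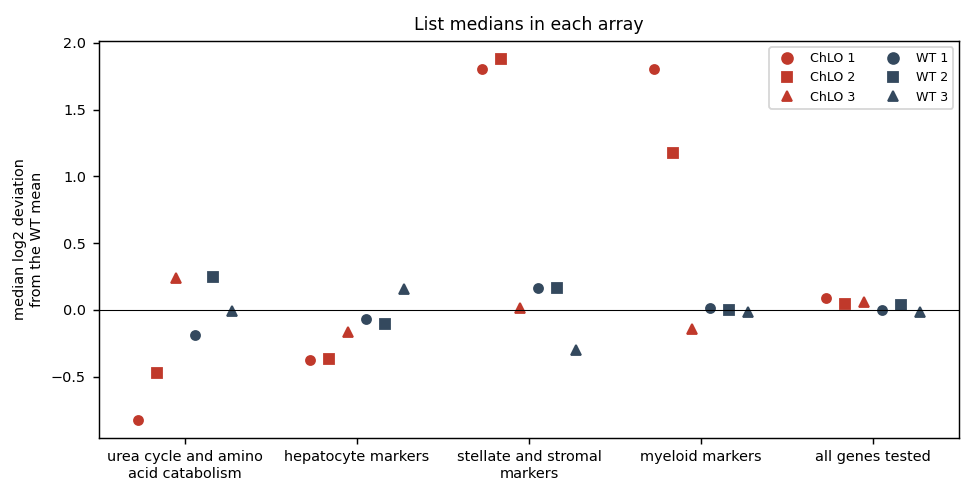
Median log2 deviation from the WT mean (vertical axis) over the urea cycle and amino acid genes, over marker lists and over all genes tested, 1 point per array, ChLO in red left of WT in dark blue. ChLO 1 and ChLO 2 are the lowest points for the amino acid genes (-0.82 and -0.47) and the highest for stromal markers (1.80 and 1.88), while ChLO 3 lies among the WT points for both.

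Most probe sets of a gene gave the same direction. Of the 48 genes, 19 had more than 1 probe set past the filter, and for 4 of these (Otc, Kynu, Mccc2 and Mmut) a dimmer probe set had the opposite sign. For Otc that probe set, with a mean of 8.57, differed by 0.027, while the 2 brighter ones differed by -0.51 and -0.54.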

How the data were processed

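Biotin-labelled RNA from frozen liver was hybridized to Affymetrix arrays, 1 per mouse, per the labels' protocols. The authors deposited log2 signals of 45101 probe sets, made with MAS5 per the submitters' processing notes, which give no version. The log2 unit and the scaling come from the values: the trimmed mean of the linear signal (2% off each end) is 500 on each array. Such scaling hides a change shared by most transcripts, and dim probe sets vary strongly. Arrays carry no read depth, and their number limits the precision.

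After 64 control probe sets, those with a mean under the 40th percentile (log2 5.50) were left out. Each gene took its brightest probe set with 1 symbol. ChLO was compared with WT by limma 3.58.1 in R 4.3.3 (lmFit, eBayes with trend), adjusted by Benjamini-Hochberg over 12598 genes at 0.05. The steps were tried on simulated data with noise independent between genes. Here genes moved together within arrays, so that trial does not give the error rates of these data. The p-values measure the spread between mice. Per-array values are given for genes at an unadjusted p under 0.05, genes without overlap, the urea cycle, Glul, Tat, Tdo2, Gpt and Gpt2. The set, the lists and the rules were chosen with earlier results of these data known. A planned ratio of Gls2 to Glul was not made, since Gls2 was not analysed here. Deviations of same-numbered arrays correlated at 0.304 (number 1), -0.166 (number 2) and 0.0631 (number 3), against -0.313 to 0.257 for differently numbered arrays. The arrays numbered 1 thus had the largest correlation. The labels name no shared litter or day, so the numbers were treated as names, and a fit with the number as a block is given below.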

Additional observations from a re-analysis of the deposited data

How the results depend on the processing

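Each choice was changed alone. With all arrays, 0 genes were called over all genes, and the count was 3 with no filter, 1 with the replicate block, 568 with array weights and 0 to 301 when 1 array was left out (301 without ChLO 3, 3 without ChLO 1). Of the urea cycle and amino acid genes, 0 were called lower, and 5 with array weights (Amdhd1, Asl, Etnppl, Haao and Pcca) and 0 to 7 when 1 array was left out (7 without ChLO 3). Array weights gave ChLO 2 a weight of 4.58 and ChLO 1 and ChLO 3 weights of 0.484 and 0.371. The count of lower genes at an unadjusted p under 0.05, 4 as reported, was 7 with equal array medians, 22 with array weights, 8 with the replicate block and 3 to 23 when 1 array was left out (23 without ChLO 3). The count of higher genes, 1 as reported, was 2 with equal array medians or no filter, 4 with spike-in scaling, 0 with the 60th percentile filter, no trend, robust fitting, the mean of probe sets or without probe sets of several transcripts, and 0 to 4 when 1 array was left out. It was 4 without ChLO 1, 1 without ChLO 2 and 0 without any other array. Genes with each ChLO array under each WT array numbered 6, but 3 with equal array medians or spike-in scaling and 6 to 25 when 1 array was left out (25 without ChLO 3). Those above numbered 2, but 1 without probe sets of several transcripts and 2 to 4 when 1 array was left out (4 without ChLO 1). The median difference stayed below 0 under every alternative run, from -0.56 to -0.07 (-0.11 without ChLO 1), but spike-in scaling moved the median of all genes to 0.31, and the median of the set relative to it was -0.38 there as in the reported fit. Of 303 refitted differences of the 18 genes given by array under the rule, 290 kept their direction and side of the threshold, 7 passed it and 6 changed sign. No filter, the 60th percentile filter, no trend, robust fitting and the replicate block cannot change these differences, so their direction was fixed there. As 0 of these genes passed in the reported fit, keeping the side meant not passing. Glul became 0.11 with quantile normalization, 0.22 with spike-in scaling, 0.29 with array weights and from -0.24 to 0.38 when 1 array was left out (0.38 without ChLO 1). Gcsh became 0.10 with spike-in scaling, and Otc 0.0273 without probe sets of several transcripts. Beyond fewer samples or probe sets, the cause was not tested.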

Other observations

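Urea synthesis marks the periportal and glutamine synthesis the pericentral hepatocytes, and lists of both zones were compared. Of 14 tested periportal genes, 10 were lower in ChLO and 4 higher, with a median of -0.39. Over all genes tested, 43.5% were lower. Of the 14, 5 (Cps1, Ass1, Asl, Arg1 and Hal) belong to the set described above, and all 5 were lower. The genes outside the set were divided. Pck1, Cyp2f2, Pigr, Ctsc and Apof were lower, and Hsd17b13, Aldh1b1, Sox9 and Cdh1 were higher, by 0.16, 0.47, 0.23 and 0.21. Cyp2f2, a periportal cytochrome P450, read 13.31, 14.39 and 14.76 in the ChLO livers, against 15.05, 14.77 and 15.41 in the WT livers, with no overlap and a difference of -0.92 (SE 0.37, limma adjusted p = 0.535). Of 15 tested pericentral genes, 8 were higher and 7 lower, with a median of 0.12 (-0.21 without ChLO 3). Above every WT array were 3 of the 15 in ChLO 1, 8 in ChLO 2 and 14 in ChLO 3, against 38.8%, 31.5% and 31% of all genes tested. Below every WT array were 10 of the 15 in ChLO 1 and 1 in each of the other two, against 29.2%, 25% and 24% of all genes. Cyp1a2, a pericentral P450, read 14.00, 14.23 and 14.78 in the ChLO livers, against 13.34, 13.59 and 13.84 in the WT livers, a difference of 0.75 (SE 0.24, adjusted p = 0.468). Rhbg, an ammonium transporter of the cells that make glutamine, was higher by 0.91 (SE 0.35, adjusted p = 0.526), and Slc13a3, a dicarboxylate transporter, by 0.65 (SE 0.24, adjusted p = 0.502), both with no overlap. Cyp2c29, also pericentral, was 3.30-fold lower in ChLO, a difference of -1.72 (SE 0.35, adjusted p = 0.237), and -1.97 without ChLO 3 (adjusted p = 0.0343). The difference between the zones was not tested.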
